A study of Arabidopsis thaliana with 23 samples.

Results

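The SHR-inducible line 12 h after the start of dexamethasone (Dex) treatment was set against the same line at 0 h. Its members are 4 of the 23 arrays of the series, 2 at 12 h and 2 at 0 h, chosen by their labels. Both groups were Arabidopsis thaliana seedlings of ecotype Columbia, grown for 5 days on standard medium. The 12 h group was then kept for 12 h on medium with 1 micromolar Dex, the steroid that activates the inducible protein, and the 0 h group was taken at the start. Each array, an Affymetrix ATH1 chip, gave a signal intensity per probe set from RNA amplified in 2 cycles. The labels name biological replicates with roots pooled in each, and do not give the promoter, the fusion or the genetic background of the inducible line. The sources disagree on the tissue. The source names give cells sorted by the J0571 enhancer trap, which marks ground tissue, and the protocol text gives cut roots. The series also holds 6 arrays of this line at 1, 3 and 6 h, 10 arrays of an SCR-inducible line over the same times, and 3 arrays of cortex/endodermis initial (CEI) cells sorted with a CYCD6 marker on standard medium. No course without Dex was analysed here, so time on Dex and time since the transfer cannot be told apart.

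SHORT-ROOT (SHR) is a GRAS transcription factor made in the stele that moves one cell layer outward into the endodermis, the quiescent centre and the initial cells. There it acts with SCARECROW (SCR), a related factor, to specify endodermis and to drive the asymmetric division by which the daughter of a CEI cell gives cortex and endodermis. Partners such as JACKDAW (JKD), a zinc finger protein, bind SHR and limit its movement.

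Signals of the replicate arrays correlated across probe sets with r = 0.942 at 12 h and 0.914 at 0 h, and with 0.862 in the SCR line at 6 h, the lowest of any group. The annotation used here named a single gene for 8850 of the 15983 probe sets tested (55.4%), and neither SHR nor SCR was among them, so the induced gene could not be checked. The tissue label was checked through the markers it did name, 3 of 14 for endodermis, 2 of 3 for cortex, 2 of 10 for epidermis and 2 of 3 for the quiescent centre, with 0 of 10 for stele and 0 of 4 for root cap. Summed endodermis marker signal was 1078 to 1123 at 12 h and 350.3 to 1008 at 0 h. Summed cortex marker signal was 609 to 1578 at 12 h and 477 to 2167 at 0 h. Summed epidermis marker signal was 22.9 to 236 at 12 h and 35.1 to 420.4 at 0 h. Summed quiescent centre marker signal was 576 to 1093 at 12 h and 503 to 1332 at 0 h. Only the endodermis sums were separate between the times, by a narrow margin of 1078 against 1008. Of the 3 endodermis markers 2 overlapped between the times. One of these, AT1G61590, had 106 and 194 at 12 h, against 237 and 24.3 at 0 h. The root hair expansin EXPA7 had 20.3 and 122 on the 12 h arrays and 23.5 and 248 on the 0 h arrays, and replicate 2 was the higher one at both times. The cortex gene AT1G09750, an aspartyl protease, had the opposite order, with 1351 and 338 at 12 h and 938 and 268 at 0 h. No named marker stayed under a signal of 10 on every array. Their part in the results below was not tested, and in such bulk samples fewer cells of a type and less RNA per cell cannot be told apart.

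Which genes differed after 12 h of SHR induction was asked first. With limma over all 23 arrays, 0 of 15983 probe sets (0%) passed an adjusted p of 0.05 at 12 h against 0 h, and the lowest adjusted p was 0.0629. At an unadjusted p under 0.05 there were 1406, of which 728 were higher (4.55%) and 678 lower (4.24%). Replicate number was not part of this fit. The replicate differences of the SHR line correlated over 0.1 in 9 of 10 pairs of times. Fitting the number as a block changed the count at an adjusted p of 0.05, as given in the last section. The labels do not say that a number marks a shared batch. Both 12 h arrays lay above both 0 h arrays for 3908 probe sets (24.5%) and below both for 2699 (16.9%). Of these, 403 were over 2-fold higher at 12 h (2.52% of those tested) and 506 over 2-fold lower (3.17%). With 2 arrays per time such separation is not a test, and it can arise from the spread of the arrays alone. The rank of the change among probe sets with no overlap chose the named genes, so their values are a description. All log2 differences are between mean log2(signal + 10) at 12 h and at 0 h, a scale that understates the change of dim probe sets.

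The 15 named genes with the largest positive difference spanned log2 values of 2.09 to 4.51. AT5G45210, a TIR-NBS-LRR resistance-type receptor, had signals of 246 and 250.3 at 12 h, against 1.40 and 1.32 at 0 h. It was dim on both 0 h arrays and alike on both 12 h arrays, and its log2 difference was 4.51 ± 0.70 (SE, n = 2 arrays each, limma adjusted p = 0.0629). AT4G11290, a class III peroxidase of the cell wall, had 441 and 166 at 12 h, against 28.0 and 14.1 at 0 h. The 12 h arrays differed from each other by more than the 0 h arrays did, and the log2 difference was 3.22 ± 0.51 (limma adjusted p = 0.0629).

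Several of the higher genes act at the cell wall or are secreted. AT1G30600, a subtilisin-like protease, had 552 and 502 at 12 h, against 102 and 96.8 at 0 h. XTH16, a xyloglucan endotransglucosylase that cuts and rejoins wall xyloglucan, had 479 and 387 at 12 h, against 170 and 37.5 at 0 h. AT5G42720, a family 17 glycosyl hydrolase, had 174 and 186 at 12 h, against 38.2 and 20.9 at 0 h. In each of these the 12 h arrays were close to each other and above both 0 h arrays, by log2 differences of 2.29, 2.25 and 2.30. Prx37, a further class III peroxidase, had 461 and 378 at 12 h, against 127 and 57.4 at 0 h. AT1G20030, a thaumatin-family protein, had 132 and 83.7 at 12 h, against 27.3 and 2.01 at 0 h. AT2G14900, of the gibberellin-regulated GASA family of small secreted peptides, had 626 and 312 at 12 h, against 73.0 and 57.8 at 0 h. The groups did not overlap in any of them, and their log2 differences were 2.15, 2.44 and 2.59.

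Other higher genes encode intracellular proteins. AT5G22580, a stress-responsive A/B barrel protein, had 333 and 457 at 12 h, against 48.2 and 42.9 at 0 h. AT1G05370, a Sec14-like lipid transfer protein, had 81.5 and 117 at 12 h, against 10.5 and 1.83 at 0 h. NDB4, an alternative NAD(P)H dehydrogenase of mitochondria, had 201 and 89.8 at 12 h, against 1.83 and 30.5 at 0 h. The 0 h arrays were dim in the lipid transfer and dehydrogenase genes, so their log2 differences of 2.79 and 2.73 rest on low signals. AT3G05190, an aminotransferase-like protein, had 348 and 296 at 12 h, against 73.2 and 29.6 at 0 h. AT5G58610, a PHD finger protein of the kind that reads chromatin, had 103 and 63.2 at 12 h, against 6.62 and 9.44 at 0 h. SOL1, a TSO1-like CXC-domain protein, had 81.2 and 103 at 12 h, against 17.5 and 10.6 at 0 h. All 3 were separate between the times, with log2 differences of 2.53, 2.34 and 2.09. AT2G26520 had 218 and 176 at 12 h, against 16.7 and 16.6 at 0 h. The genes just below these 15 were SLY2 at 2.04, PRA1.F1 at 2.00 and TRI at 1.96.

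**Figure D1:**
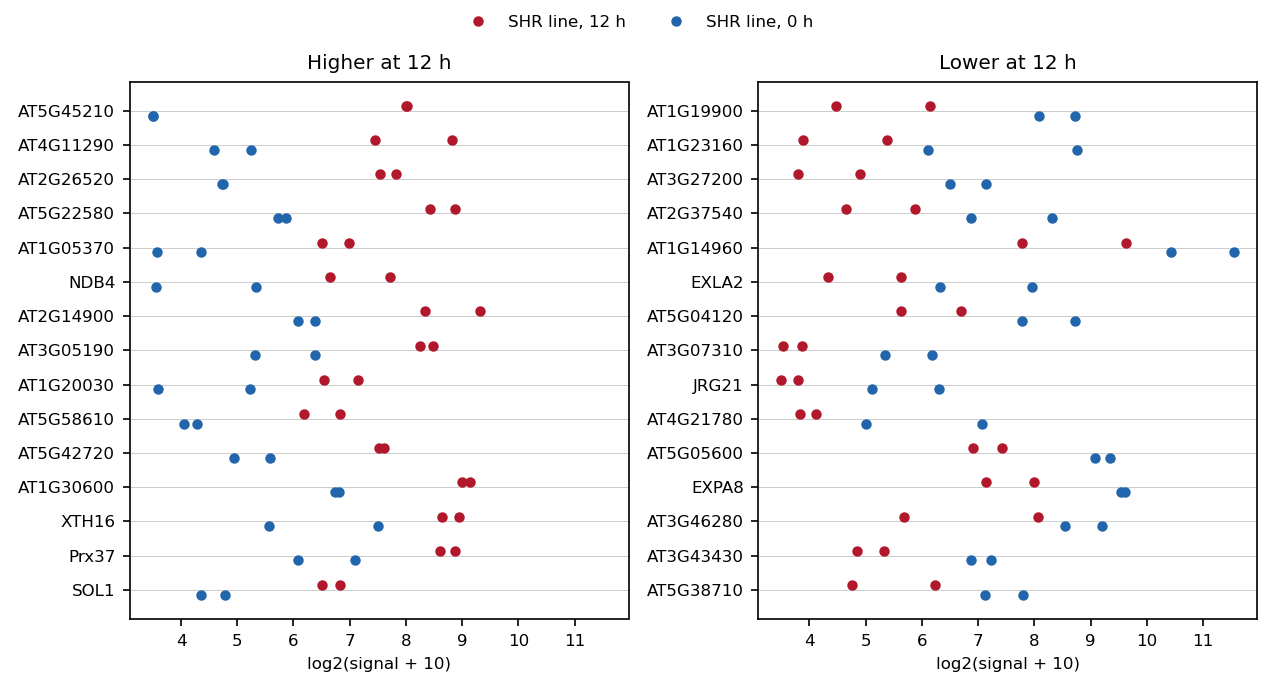
Signals of the 30 named genes on the 2 arrays at 12 h (red) and the 2 arrays at 0 h (blue) of the SHR line, as log2(signal + 10) on the horizontal axis, 1 gene per row. In the left panel every 12 h point lies right of both 0 h points, in the right panel left of them; this separation is how the genes were chosen.

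The 15 named genes with the largest negative difference spanned log2 values of -3.09 to -1.96. AT1G19900, a galactose oxidase-like protein, had 12.3 and 61.0 at 12 h, against 414 and 260 at 0 h. Its 12 h arrays were both far below the lower 0 h array, and the log2 difference was -3.09 ± 0.64 (SE, n = 2 arrays each, limma adjusted p = 0.295). A pair of oxygenases that hydroxylate jasmonic acid and so inactivate it was among them. JRG21 had 1.27 and 3.89 at 12 h, against 68.9 and 24.6 at 0 h. AT5G05600 had 110 and 162 at 12 h, against 640 and 529 at 0 h. Both genes were separate between the times, with log2 differences of -2.06 and -2.04.

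Wall-loosening genes were also among the lower ones. EXPA8, an alpha-expansin, had 130 and 244 at 12 h, against 774 and 730 at 0 h. EXLA2, an expansin-like protein, had 9.98 and 39.6 at 12 h, against 69.9 and 238 at 0 h. The 0 h arrays were close to each other for EXPA8 and far apart for EXLA2, and the log2 differences were -2.01 ± 0.51 and -2.16 ± 0.85 (SE). AT3G43430, a RING finger protein, had 30.0 and 18.9 at 12 h, against 140 and 108 at 0 h. AT3G27200, a cupredoxin-family copper protein, had 19.8 and 3.82 at 12 h, against 80.0 and 131 at 0 h. AT1G14960, a member of the Bet v 1-like family, had 211 and 782 at 12 h, against 2994 and 1361 at 0 h. The RING finger gene varied least within each time, and these log2 differences were -1.97, -2.47 and -2.28.

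Of the other named lower genes, AT5G38710, a proline dehydrogenase that starts proline breakdown, had 17.2 and 65.2 at 12 h, against 129 and 211 at 0 h. AT5G04120, of the phosphoglycerate mutase family, had 93.0 and 39.6 at 12 h, against 413 and 208 at 0 h. AT1G23160, a member of the GH3 family of acyl-amido synthetases, had 4.79 and 31.8 at 12 h, against 58.6 and 422 at 0 h. The last had the widest spread at 0 h of the 3, and its log2 difference was -2.79 ± 1.08 (SE). AT2G37540, AT3G07310, AT4G21780 and AT3G46280 had log2 differences of -2.32, -2.07, -2.06 and -1.99. The genes just outside the 15 were hemb2 at -1.96, AT4G04460 at -1.93 and AT1G26680 at -1.93.

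The most extreme probe sets without a named gene were 264577_at and 258599_at among the higher and 250375_at and 256376_s_at among the lower. The signal of 258599_at was 2857 and 2022 at 12 h, against 442 and 119 at 0 h, with a log2 difference of 3.32 ± 0.55 (SE, n = 2 arrays each, limma adjusted p = 0.0722). The signal of 256376_s_at was 0.653 and 0.706 at 12 h, against 223 and 5.48 at 0 h. Its separation of the times rests on 1 bright 0 h array and on a dim one. The log2 differences of 264577_at and 250375_at were 3.51 and -2.55.

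The calls depended on 1 group outside the comparison. With both SCR 6 h arrays left out, whose replicate correlation was the lowest, limma called 38 probe sets at 12 h against 0 h, 33 higher (0.206%) and 5 lower (0.0313%), and all 38 had no overlap between the times. The number rested on single SHR arrays. Dropping the 0 h array of replicate 1 left 36 calls, dropping that of replicate 2 left 2, and dropping the 12 h array of replicate 1 or of replicate 2 left 1 or 9. The same SHR arrays chose the named genes and gave the tested difference, so how many of them passed is a description. Of the 15 named higher genes 10 passed in that fit, among them AT2G26520 (limma adjusted p = 0.000158), AT1G30600 (0.00397) and AT5G45210 (0.00586). Of the 15 named lower genes 3 passed, AT1G19900, EXPA8 and AT3G43430 (limma adjusted p = 0.0493 each). Among the 23 called probe sets with a named gene were further genes with smaller differences. AT5G16250 had 1762 and 1424 at 12 h, against 523 and 389 at 0 h (limma adjusted p = 0.00603 in that fit). AT3G56370, a leucine-rich repeat receptor kinase, had 584 and 538 at 12 h, against 191 and 233 at 0 h (limma adjusted p = 0.0493 in that fit). SCPL45, a serine carboxypeptidase-like protein, had 1404 and 1279 at 12 h, against 496 and 304 at 0 h, with the same adjusted p in limma. The 12 h arrays lay close together in these genes, above both 0 h arrays.

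Whether the differences were shared with the SCR line was asked through its own 12 h and 0 h arrays. The limma test of the SHR difference minus the SCR difference called 0 of 15983 probe sets (0%), with a lowest adjusted p of 0.299, beside 988 higher in the SHR line (6.18%) and 956 lower (5.98%) at an unadjusted p under 0.05. Genes named here were chosen by the size or p-value of their SHR difference, which is part of this test. Their unadjusted p-values for it are therefore a description. Of the 15 named higher genes 14 also had a positive difference in the SCR line. AT4G11290 had 1392 and 992 at 12 h, against 280.4 and 110 at 0 h in the SCR line, and its log2 difference was 3.22 in the SHR line and 2.67 there. Prx37 differed by 2.15 in the SHR line and by 2.82 in the SCR line. Both peroxidases thus stood higher at 12 h in both lines. The exception was AT3G05190, with 192 and 139 at 12 h, against 230.4 and 200 at 0 h in the SCR line, a log2 difference of -0.37. The difference between the lines was 2.90 ± 0.85 for it (SE, limma unadjusted p = 0.0033, adjusted p = 0.334).

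Of the 15 named lower genes, 7 had a positive difference in the SCR line and 8 a negative one. With no overlap of its arrays, the SCR line was higher for 4 of the 15 and lower for 5. Of all probe sets it was higher for 20.4% and lower for 31.7%, so these counts by themselves do not set the 15 apart. AT5G05600 had 4193 and 5002 at 12 h, against 1854 and 1682 at 0 h in the SCR line, where both 12 h arrays were higher. The SHR difference minus the SCR difference was -3.41 ± 0.78 (SE, limma unadjusted p = 0.000396, adjusted p = 0.311). For this and the next 3 genes the SHR difference that chose them is part of that value. JRG21, the other jasmonate oxygenase, had 87.9 and 126 at 12 h, against 21.1 and 37.5 at 0 h in the SCR line, and a difference between the lines of -3.65 ± 0.78 (limma unadjusted p = 0.000201, adjusted p = 0.299). AT3G43430 had 167 and 175 at 12 h, against 60.4 and 106 at 0 h in the SCR line, and a difference between the lines of -2.97 ± 0.62 (limma unadjusted p = 0.000171, adjusted p = 0.299). AT5G38710 had 244 and 311 at 12 h, against 128 and 107 at 0 h in the SCR line, and a difference between the lines of -3.13 ± 0.83 (limma unadjusted p = 0.00146, adjusted p = 0.330). In all 4 the SCR line was higher at 12 h while the SHR line was lower, and none of the differences between the lines passed after adjustment. AT1G19900, EXLA2, AT5G04120, AT3G46280 and EXPA8 were lower at 12 h in both lines with no overlap. Their SCR log2 differences were -1.72, -0.80, -0.95, -0.90 and -1.53, that of EXPA8 beside -2.01 for SHR.

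Signals at the times between were set beside these values without a test, since each time shares the 0 h arrays. AT5G45210 averaged 1.36, 17.9, 35.5, 87.6 and 248 in the SHR line at 0, 1, 3, 6 and 12 h. AT1G30600 averaged 99.4, 113, 311, 380.1 and 527. AT3G43430 averaged 124, 143, 92.2, 60.5 and 24.5. In these 3 each mean after 1 h lay further in the direction of the 12 h mean. EXPA8 averaged 752, 1641, 580, 420 and 187, and AT5G05600 averaged 585, 1962, 825, 371 and 136. For both of them the 1 h mean was the highest of the course, so that the 12 h value lay below a level that had been higher at 1 h. At 6 h, the mean lay on the 12 h side of the 0 h mean for all 15 named higher genes and 14 of the 15 named lower genes. The 0 h arrays also took part in choosing these genes, so the count does not show a steady course.

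**Figure D2:**
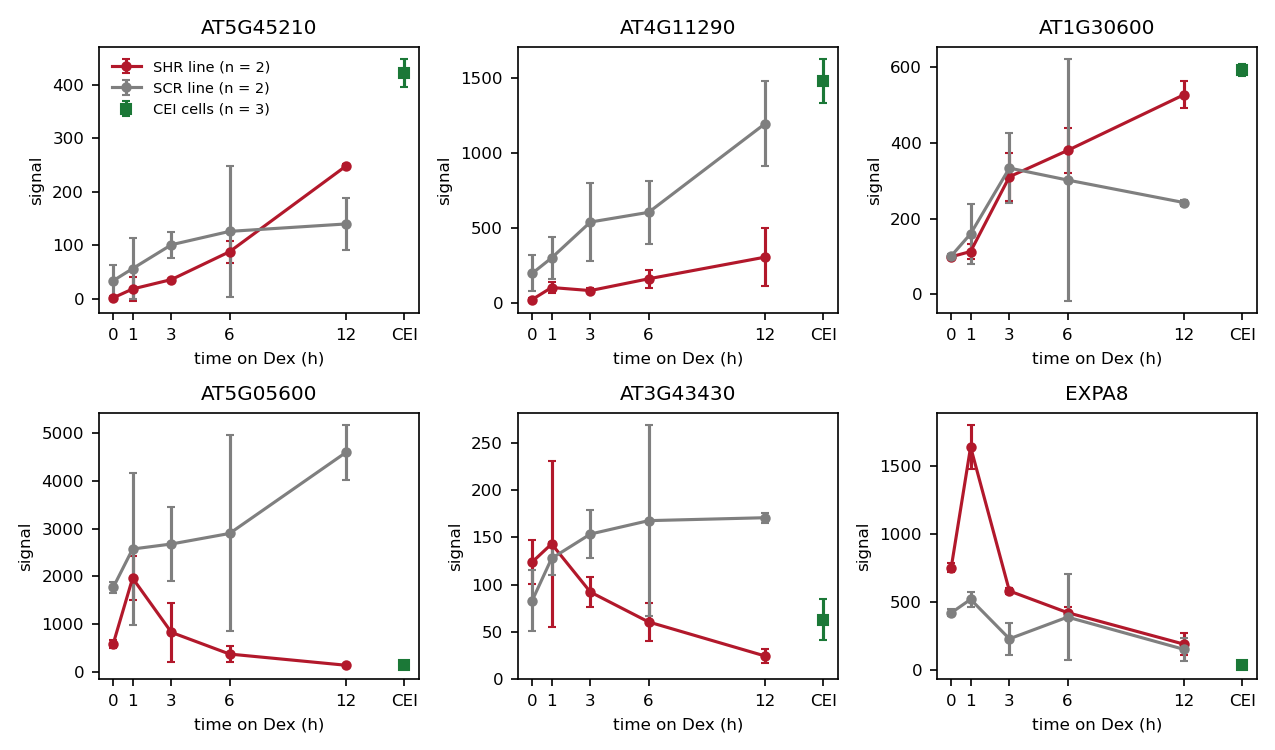
Mean signal (linear, vertical axis) of 6 named genes against time on Dex in h for the SHR line (red) and the SCR line (grey), with CEI cells as a green square; bars are 1 SD (n = 2 arrays per time, 3 for CEI). The upper 3 genes end highest at 12 h in the SHR line and the lower 3 end lowest, AT5G05600 and EXPA8 after a higher mean at 1 h; the SCR line ends above its 0 h mean for AT5G05600 and AT3G43430.

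The probe sets over 2-fold apart in the SHR line were then followed across the series. The SHR arrays at 12 h and 0 h chose them, and the other arrays took no part. The median log2(signal + 10) of the 403 higher ones, averaged over the arrays of a time, was 6.53, 6.37, 6.94, 7.54 and 7.86 at 0, 1, 3, 6 and 12 h in the SHR line. In the SCR line the same probe sets had 6.84, 6.28, 6.78, 6.70 and 6.82, and CEI cells had 7.97. The 506 lower ones had 7.66, 8.06, 7.39, 7.07 and 6.25 over the same times in the SHR line. The SCR line had 7.38, 7.59, 7.52, 7.68 and 7.70 for them, and CEI cells had 6.29. With no overlap of its own arrays at 12 h and 0 h, the SCR line was higher for 107 of the 403 (26.6%) and lower for 106 (26.3%), beside 20.4% and 31.7% of all probe sets. Of the 506 it was higher for 203 (40.1%) and lower for 58 (11.5%).

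**Figure D3:**
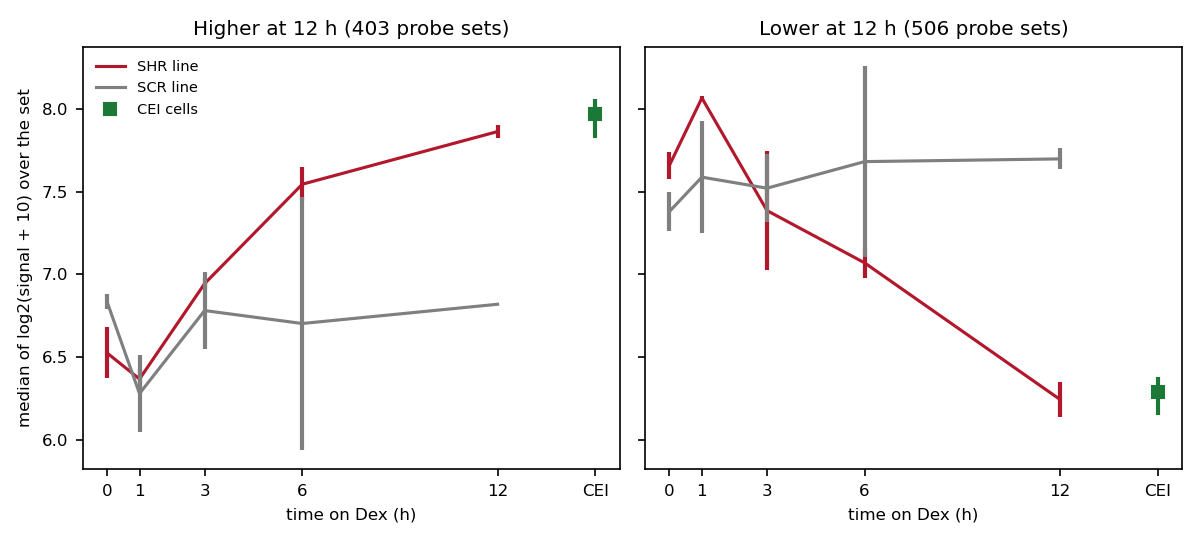
Median of log2(signal + 10) over the 403 probe sets over 2-fold higher (left) and the 506 over 2-fold lower (right) at 12 h in the SHR line, against time on Dex in h; lines join the mean of the array medians and vertical bars span the arrays of a group. The SHR line (red) ends at 7.86 and 6.25 and the SCR line (grey) at 6.82 and 7.70, and CEI cells (green) stand at 7.97 and 6.29; the choice of the sets fixes the order of the SHR line at 12 h and 0 h.

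CEI cells were compared with the SCR line at 0 h, a contrast that shares no array with the SHR line. In limma, 732 probe sets were higher in CEI cells (4.58%) and 1095 lower (6.85%). Of the 403 probe sets higher in the SHR line at 12 h, 99 were called higher in CEI cells, which is 24.6% of these and 13.5% of the CEI calls, and 4 were called lower. Of the 506 lower ones, 145 were called lower in CEI cells, 28.7% of these and 13.2% of the CEI calls, and 5 were called higher. All 15 named higher genes stood above the SCR line at 0 h in CEI cells, 8 of them past the threshold, and 12 of the 15 named lower genes stood below it, 5 past the threshold. AT4G11290 averaged 1475 ± 148 in CEI cells (SD, n = 3), and AT1G30600 averaged 593 ± 15.9. AT5G05600 averaged 136 ± 36.4 in the SHR line at 12 h (n = 2) and 135 ± 24.5 in CEI cells. AT5G04120 went the other way, with 1362 ± 327 in CEI cells and 481 in the SCR line at 0 h. Across all tested probe sets the SHR difference at 12 h correlated with the CEI difference at r = 0.48 and with the SCR difference at 12 h at r = -0.19, over 15983 probe sets that are not independent and with no array in common.

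The tested genes of mitosis and of DNA replication were all higher on both 12 h arrays. The G2/M list had 4 of its 30 genes tested, all 4 higher and 0 lower with no overlap (24.5% and 16.9% of all probe sets), with a median log2 difference of 1.15 beside 0.02 over all probe sets, and 0 passed in limma over all arrays. BUBR1, a spindle checkpoint kinase, had 139 and 201 at 12 h, against 50.6 and 40.4 at 0 h, a log2 difference of 1.68 ± 0.52 (SE). AUR2, an Aurora kinase of dividing cells, had 457 and 425 at 12 h, against 181 and 150 at 0 h, a difference of 1.37 ± 0.57. AUR1 had 478 and 646 at 12 h, against 319 and 260.3 at 0 h, and AUR3 had 186 and 210 at 12 h, against 138 and 108 at 0 h. The separation was widest for BUBR1 and AUR2 and narrow for AUR3. In the SCR line the median of the 4 was -0.19, and the difference between the lines was 1.67 for BUBR1 (limma unadjusted p = 0.0346, adjusted p = 0.392) and 1.61 for AUR2 (unadjusted p = 0.0603).

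The DNA replication list had 2 of its 22 genes tested, both higher with no overlap, as were 24.5% of all probe sets. PRL, the PROLIFERA subunit of the MCM helicase that licenses replication origins, had 780 and 920 at 12 h, against 463 and 382 at 0 h. ICU2, the catalytic subunit of DNA polymerase alpha, had 122 and 128 at 12 h, against 98.4 and 69.0 at 0 h. Their log2 differences were 0.99 ± 0.45 and 0.55 ± 0.37 (SE). The SCR line differed by -0.58 for PRL and -0.39 for ICU2, and the difference between the lines for PRL was 1.57 (limma unadjusted p = 0.0257, adjusted p = 0.380). SIM, a cell cycle inhibitor that promotes endoreduplication, had 374 and 191 at 12 h, against 454 and 575 at 0 h, a log2 difference of -0.91. BUBR1 averaged 170 in the SHR line at 12 h and 167 ± 47.8 in CEI cells (SD, n = 3), and PRL averaged 849.8 in that line and 844 ± 98.0 in those cells. AUR2 averaged 441 in the SHR line at 12 h and 557 ± 79.3 in CEI cells.

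**Figure D4:**
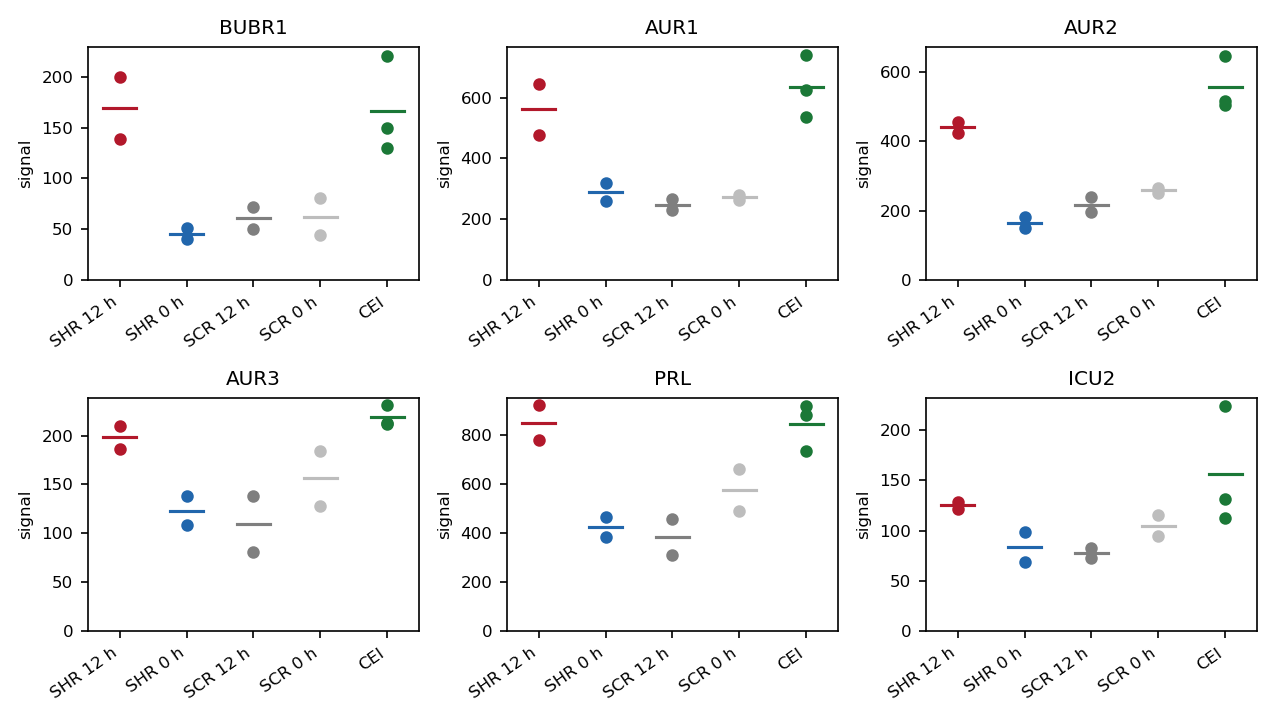
Signals (linear, from 0) of 4 G2/M genes and 2 DNA replication genes on each array of the SHR line at 12 h and 0 h, the SCR line at 12 h and 0 h and CEI cells; dots are arrays and bars are means (n = 2, and 3 for CEI). In every panel both SHR 12 h dots lie above both SHR 0 h dots, and the SCR 12 h mean lies below the SCR 0 h mean.

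In the SHR/SCR pathway list 3 of 12 genes were tested. SLY2, an F-box protein of gibberellin signalling related to SLY1, had 229 and 346 at 12 h, against 93.3 and 38.7 at 0 h. Its log2 difference was 2.04 ± 0.61 (SE, limma adjusted p = 0.394, and 0.0493 without the SCR 6 h arrays). AT5G41920, the GRAS factor SCL23 and a relative of SCR, had 130.3 and 90.5 at 12 h, against 74.6 and 74.0 at 0 h, a difference of 0.50 ± 0.33. JKD had 300 and 172 at 12 h, against 208 and 78.8 at 0 h, and its arrays overlapped between the times. In gibberellin signalling the receptor gene GID1A had 200.1 and 139 at 12 h, against 137 and 73.4 at 0 h, and SLY1 had 61.1 and 69.8 at 12 h, against 111 and 88.3 at 0 h. The F-box pair thus lay in opposite directions, SLY1 having a log2 difference of -0.53. Of the 5 tested gibberellin signalling genes 2 were higher, 1 lower and 2 overlapped. Of all probe sets 24.5% were higher and 16.9% lower with no overlap, so these counts by themselves do not set the 5 apart.

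Among the markers, AT4G28100, the endodermis gene EN7, had 567 and 516 at 12 h, against 324 and 157 at 0 h. Its log2 difference was 1.22 ± 0.43 (SE), and the difference between the lines was 1.68 (limma unadjusted p = 0.0136, adjusted p = 0.367). AGL42, a MADS factor that marks the quiescent centre, had 35.4 and 55.4 at 12 h, against 30.3 and 1.88 at 0 h, a log2 difference of 1.32 ± 0.48 on low signals. The other tested quiescent centre marker, AT1G02870, had 541 and 1037 at 12 h, against 1301 and 501 at 0 h, which overlapped, with a log2 difference of -0.11. The receptor kinase GSO1, which acts in Casparian strip formation, had 450.3 and 367 at 12 h, against 448 and 169 at 0 h. The cortex marker AT1G62500 (CO2) had 227 and 272 at 12 h, against 1230 and 210 at 0 h. Both of these overlapped between the times, and their 0 h arrays were far apart.

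Of 7 tubulins 2 were higher (28.6%) and 1 lower (14.3%) with no overlap, shares near the 24.5% and 16.9% of all probe sets. TUB7, a beta-tubulin, had 930.3 and 765 at 12 h, against 338 and 431 at 0 h, a log2 difference of 1.12 ± 0.31 (SE, limma adjusted p = 0.376). TUB1, another beta-tubulin, had 1887 and 974 at 12 h, against 2926 and 2630 at 0 h, a difference of -1.03 ± 0.43. These 2 differed oppositely in the SHR line, and the difference between the lines was 1.11 for TUB7 (limma unadjusted p = 0.0216) and -1.08 for TUB1 (unadjusted p = 0.0921). Of 5 core histone genes 2 were higher and 0 lower with no overlap, HTB1 with a difference of 0.52 and HTB11 with 0.34.

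Of 9 expansins, the wall-loosening proteins, 2 were higher and 2 lower with no overlap (22.2% each, near the 24.5% and 16.9% of all probe sets), the median log2 difference being -0.30. That median rested on single arrays, at -1.30 when the 0 h array of replicate 1 was dropped, 0.70 for the 0 h array of replicate 2 and 0.42 for the 12 h array of replicate 1. EXPA15 had 230 and 321 at 12 h, against 136 and 125 at 0 h, while EXPB1, a beta-expansin, had 11.3 and 53.2 at 12 h, against 71.2 and 188 at 0 h. The difference between the lines for EXPA15 was 1.94 (limma unadjusted p = 0.0066, adjusted p = 0.353), beside a log2 difference of -0.93 in the SCR line itself. Of 8 xyloglucan endotransglucosylases 1 was higher, XTH16, and 4 were lower, with a median of -0.61 beside 0.82 for the SCR line, and of -0.15 when the 0 h array of replicate 1 was dropped. XTH33 had 31.8 and 14.5 at 12 h, against 141 and 52.6 at 0 h, and XTH19 had 813 and 1277 at 12 h, against 1543 and 2513 at 0 h. XTH16 was thus the single member of that family above its 0 h arrays. Of 7 cellulose synthase and related genes 1 was higher and 1 lower (14.3% each), CSLC04 with a difference of -0.82.

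The tested auxin and cytokinin response genes were lower or overlapped. Of 8 Aux/IAA and GH3 genes 0 were higher and 3 lower with no overlap (37.5%, beside 16.9% of all probe sets). Their median was -0.65 beside 0.53 for the SCR line. IAA30, a repressor-type Aux/IAA protein, had 8.76 and 21.9 at 12 h, against 40.8 and 46.1 at 0 h. GH3.1, of a family that conjugates auxin to amino acids, had 3.38 and 5.91 at 12 h, against 29.5 and 29.8 at 0 h, and GH3.17, which also conjugates auxin, had 192 and 365 at 12 h, against 499 and 797 at 0 h. All 3 were separate, the dim GH3.1 included, and the difference between the lines was -2.23 for IAA30 (limma unadjusted p = 0.0011, adjusted p = 0.330). LBD16, a lateral root regulator downstream of auxin, had 48.6 and 40.7 at 12 h, against 129 and 53.7 at 0 h. Of 6 cytokinin response regulators 2 were tested, both dim and both lower with no overlap. The cytokinin-induced RR16 had 15.1 and 9.90 at 12 h, against 56.0 and 18.1 at 0 h, a log2 difference of -0.95. ARR15 had 33.8 and 11.5 at 12 h, against 34.3 and 40.1 at 0 h, a difference of -0.62. The separation of ARR15 thus rested on the nearly equal signals of 33.8 and 34.3. Of 5 WRKY factors 2 were lower, WRKY47 with a log2 difference of -1.15 and WRKY6 with -0.73, and the 5 had a median of -0.68. It was -0.17 when the 0 h array of replicate 1 was dropped and -0.28 when the 12 h array of replicate 2 was.

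Autophagy and calcium sensor genes had no higher member with no overlap. Of all probe sets 24.5% were higher and 16.9% lower by that rule. Of 8 autophagy genes 4 were lower, all of the ATG8 family that coats autophagosome membranes, with a list median of -0.69 beside 0.52 for the SCR line. Dropping the 0 h array of replicate 1 gave -0.34 and dropping that of replicate 2 gave -1.11. ATG8H had 141 and 227 at 12 h, against 584 and 382 at 0 h in the SHR line, and 2122 and 2268 at 12 h, against 1192 and 685 at 0 h in the SCR line. ATG8E had 36.4 and 45.3 at 12 h, against 107 and 50.6 at 0 h in the SHR line, and 647 and 793 at 12 h, against 261 and 192 at 0 h in the SCR line. Both were lower in the SHR line and higher in the SCR line, and the difference between the lines was -2.62 for ATG8H (limma unadjusted p = 0.0023, adjusted p = 0.330) and -2.36 for ATG8E (unadjusted p = 0.0033). ATG8C had a difference of -0.99 and ATG8F one of -0.75 in the SHR line. Of 7 calmodulin-like genes 4 were lower (57.1%), with a median of -0.78 beside 0.55 for the SCR line. CML23, a calcium-binding sensor, had 146 and 112 at 12 h, against 320 and 468 at 0 h, and a difference between the lines of -2.06 (limma unadjusted p = 0.0041, adjusted p = 0.352). CML37, CML42 and CML43 had differences of -0.85, -0.74 and -0.78.

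**Figure D5:**
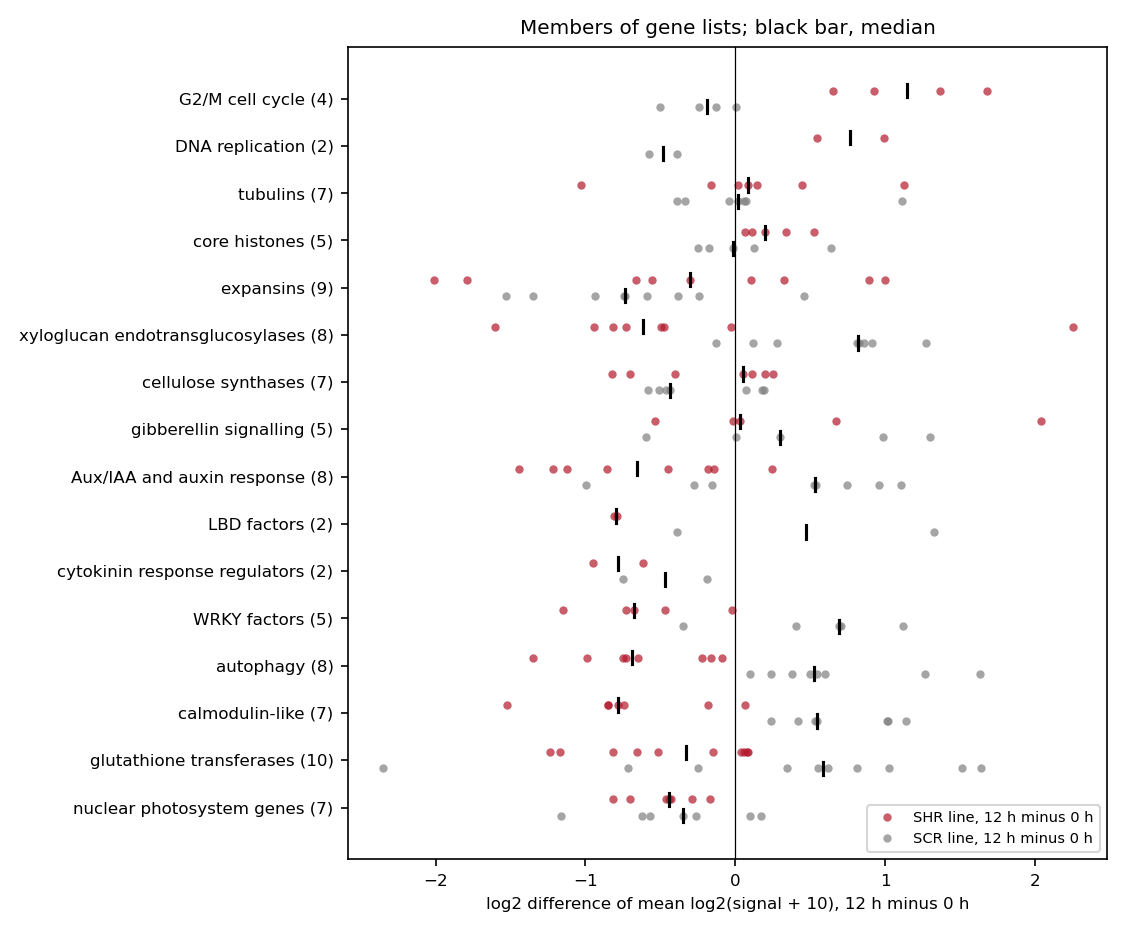
Log2 difference at 12 h against 0 h of each tested member of 16 gene lists (number of members in brackets), SHR line in red above SCR line in grey, black bars marking medians. The G2/M medians are 1.15 for the SHR line and -0.19 for the SCR line, and the autophagy medians -0.69 and 0.52; 0 members passed in limma over all arrays.

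Of 10 glutathione transferases, which conjugate glutathione to xenobiotics, 0 were higher and 2 lower with no overlap. The share of 20.0% lower lay near the 16.9% of all probe sets. GSTU26 had a log2 difference of -1.24 and GSTU16 one of -0.81. The list median was -0.33, or -0.56 and -0.66 when the replicate 2 array of 0 h or of 12 h was dropped. Of 36 UDP-glycosyltransferases 5 were higher (13.9%) and 4 lower (11.1%), shares below the 24.5% and 16.9% of all probe sets, with a median of -0.03 that ran from -0.10 to 0.17 as each SHR array was dropped in turn. UGT84A1, a phenylpropanoid glucosyltransferase, had 123 and 39.3 at 12 h, against 37.2 and 2.02 at 0 h. UGT72E1, which glucosylates monolignol-type compounds, had 4.06 and 51.3 at 12 h, against 63.2 and 60.7 at 0 h. Both rest on 1 or more dim arrays. Of 12 cytochromes P450 2 were higher (16.7%) and 3 lower (25.0%), beside 24.5% and 16.9% of all probe sets. CYP718 had 62.9 and 188 at 12 h, against 474 and 398 at 0 h.

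Of 6 sugar transport genes 2 were higher (33.3%) and 1 lower (16.7%), beside 24.5% and 16.9% of all probe sets. Their log2 differences ran from -1.51 to 1.30, and the arrays of the member at -1.51 overlapped between the times. SWEET11, a sucrose exporter, had 40.9 and 65.6 at 12 h, against 22.1 and 20.0 at 0 h, and SWEET17, a fructose transporter of the vacuole, had 60.9 and 76.6 at 12 h, against 93.6 and 82.1 at 0 h. SWEET3 had 41.0 and 40.5 at 12 h, against 6.53 and 15.6 at 0 h. Of 8 MADS factors 1 was higher (12.5%), AGL42, and 2 were lower (25.0%), AGL21 with a log2 difference of -0.36 and AGL65 with -0.26. Of 68 plastid genome probe sets 2 were higher and 2 lower, with a median of -0.06 (-0.44 to 0.28 with an array dropped), and of 7 nuclear photosystem genes 0 were separate between the times in either direction. The plastid shares lie below those of all probe sets, 24.5% and 16.9%.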

How the data were processed

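RNA of 23 ATH1 arrays was analysed. The authors deposited linear signal intensities, made with MAS5 per the submitters' processing notes. For its version and the detection calls, the sources used here give nothing. No step between arrays beyond its scaling was found. A probe set was tested (15983 of 22810, after 64 controls were set apart) when 2 or more arrays had it over their 40th percentile. A pseudocount of 10 was added and log2 taken. In R 4.3.3, limma 3.58.1 (lmFit, then eBayes with a trend) fitted 11 group means, with 12 residual degrees of freedom, two-sided tests and Benjamini-Hochberg adjustment over the 15983 at 0.05. The fit was tested on simulated data. P-values measure the spread between the labels' biological replicates, and the number of arrays limits the precision (median SE 0.38).

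Names came from the platform annotation, updated through RefSeq gene identifiers (TAIR10.1); probe sets marked _s_at can bind several genes. Named were the 15 largest positive and 15 largest negative differences without overlap among single-gene probe sets, up to 4 members of each gene list by smallest p, the SHR/SCR pathway and at most 2 unnamed probe sets per direction. The members and lists were chosen with earlier results of these data known, and some list patterns were corrected after their matches were seen. Of 53 lists, 20 had 3 or more tested members. Genes beyond the rule (AT5G16250, AT3G56370 and SCPL45) were chosen after their values were seen. Alternatives were the pseudocount, the filter, quantile normalization, each array left out, the replicate number as a block, other variance settings and the fit without both SCR 6 h arrays.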

Additional observations from a re-analysis of the deposited data

How the results depend on the processing

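The number of probe sets called at 12 h against 0 h in the SHR line, 0 over all arrays, was 2 with a pseudocount of 1 and 38 without both SCR 6 h arrays, a setting that removes the group with the lowest replicate correlation and lowers the median standard error of 0.38 to 0.35. With 1 SHR array left out in turn it was 0 to 1. Within the fit without SCR 6 h, leaving out SHR arrays gave 36, 2, 1 and 9, and no variance trend gave 9 (both chosen after seeing the data). With the replicate number as a block it was 6, and 171 without SCR 6 h; the replicate differences of the SHR line correlated over 0.1 in 9 of 10 pairs of times (0.0499 to 0.505, and 0.13 for 12 h with 0 h), but the labels do not say that a number marks a shared batch and there are 2 numbers only, so whether they pair the samples was not settled. The difference between the lines had 0 to 1 calls with an array left out. The counts with no overlap and over 2-fold were 164 higher and 213 lower with a pseudocount of 50, and 622 to 837 higher and 692 to 1317 lower with 1 array left out, since fewer arrays overlap less often. Of 93 named values, the direction reversed only when an array was left out, and only for markers whose replicates lie far apart: the lowest and highest values were -0.68 to 2.17 for AT1G61590, -0.14 to 1.22 for GSO1, -2.26 to 0.23 for AT1G62500, -0.56 to 1.41 for AT1G09750, -2.31 to 0.99 for EXPA18, -2.03 to 0.91 for EXPA7 and -0.79 to 0.57 for AT1G02870. The cause was not tested. Dim probe sets, near the pseudocount, limit what the fold of a gene shows.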
